A study of Homo sapiens with 2 samples.

Results

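The D cyclins (CCND1, CCND2 and CCND3), their kinase partners CDK4 and CDK6, and the CDK inhibitors CDKN1A, CDKN1B, CDKN1C, CDKN2A and CDKN2C were followed on a pair of whole-genome expression arrays. The members were chosen by gene symbol, at a time when earlier results of these data were known, and every transcript probe listed under one of these 10 symbols was kept. They are 10 of 30982 gene names on the array and were read by 19 of its 41000 transcript probes, on 55 of 43376 spots. The arrays were hybridized with RNA from Y79, a human cell line established from a retinoblastoma and grown as floating cells. One array held RNA from untreated cells and the other RNA from cells harvested 48 h after treatment with siRNA against Ep-CAM, an epithelial adhesion molecule listed on the array as TACSTD1. By the study's text both cultures had earlier been exposed to the demethylating agent 5'-azacytidine, which the sample labels do not mention. The reference was untreated cells and not cells given a nonsilencing siRNA, so an effect of transfection and an effect of the Ep-CAM siRNA cannot be told apart.

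D cyclins are made when growth signals reach a cell. They bind CDK4 or CDK6, and the complex phosphorylates the retinoblastoma protein RB1 and its relatives, which releases E2F factors to switch on the genes of S phase. The INK4 inhibitors p16 (from CDKN2A) and p18 (CDKN2C) bind CDK4 and CDK6 directly, while the CIP/KIP inhibitors p21 (CDKN1A), p27 (CDKN1B) and p57 (CDKN1C) bind complexes of cyclin and kinase. Retinoblastoma cells typically lack working RB1, the substrate on which D cyclins and their kinases act in other cells.

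The results below turn mainly on 3 D cyclin probes, and the CDK6 probe is shown beside them because it and the CCND3 probe cross an intron. Each sequence is the 60-base probe as deposited, written 5′ to 3′ in the sense of the transcript, with position and strand on hg17. No bases are in capitals, since no stretch within a probe is singled out. All lie in protein-coding sequence, a reading made from knowledge of these proteins and not from an annotation of that build.
CCND1, chr11:69167820-69167879, plus strand: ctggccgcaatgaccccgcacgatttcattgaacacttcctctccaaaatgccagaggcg
CCND2, chr12:4258280-4258339, plus strand: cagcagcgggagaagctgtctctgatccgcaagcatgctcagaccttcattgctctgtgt
CCND3, chr6:42016266-42017191, minus strand: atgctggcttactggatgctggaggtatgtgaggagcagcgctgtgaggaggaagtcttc
CDK6, chr7:91897024-91945422, minus strand: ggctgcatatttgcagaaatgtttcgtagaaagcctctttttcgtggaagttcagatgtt
The bases of the CCND3 probe are spread over 926 bases of the genome and those of the CDK6 probe over 48399, so these probes match spliced transcripts. The 3 D cyclin probes have a GC content of 55% and the CDK6 probe of 40%.

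Each value below is a processed signal, the brightness of a spot in arbitrary units after the scanner software subtracted background and corrected trends over the array. A log2 ratio compares siRNA-treated with untreated cells after each array was divided by its median over the transcript spots, which was 48.8 for untreated and 50.0 for treated cells. A probe was called higher or lower where its signal differed by 2-fold or more. With 1 array for each condition the ratios lack a replicate check. No test was made, and the number of arrays limits the precision. The spread that could be measured was technical. Among 195 probes printed 10 times the SD of the log2 ratio over spots had a median of 0.14, and for a probe printed once the error given is that of the software's error model. In RNA from whole cultures, fewer cells of a type and less RNA per cell cannot be told apart.

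The Ep-CAM probe was dim on both arrays (15.6 untreated and 12.0 treated, neither marked as well above background), so the siRNA label was not checked by its target. A corner of the array surface, which reaches its last columns and last rows and was set apart in an earlier analysis of these data, held an uneven share of the large ratios. Log2 ratios of measured probes had an SD of 0.51 there and of 0.29 elsewhere. Of the 15 probes for retinoblastoma and photoreceptor markers, 9 were measured and 0 were called, with a median log2 ratio of -0.21. The brightest were GNB3 (202 untreated and 184 treated, -0.17) and RAX (103 and 91.4, -0.21). The lineage factors CRX (-0.37), OTX2 (-0.47), SIX3 (0.34) and SIX6 (0.14) were measured with ratios of both signs, while NRL, NEUROD1, PDE6H and RXRG were not well above background. Of the 15 probes for markers of pigment epithelium, glia, fibroblast, endothelial and blood cells, 9 were measured and 0 were called, with a median of 0.01. The brightest were VIM (2313 and 2101, -0.17) and TYR (327 and 360, 0.10). The other VIM probe had 208 and 142 (-0.59), and the other TYR probes were not well above background. RLBP1, COL1A1, COL3A1, CD68 and PTPRC were also measured by at least 1 probe. RPE65 and PECAM1 were dim on both arrays.

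Of the 19 member probes, 15 were well above background on both arrays and 4 on neither. None of the 15 was called higher, and 1, for CCND3, was called lower. Among all 29346 probes that rose well above background on 1 or both arrays, 1.27% were called higher and 0.927% lower. Of the 27010 measured on both, 0.792% were higher and 0.8% lower. With 15 probes, a single call is the smallest count above 0 that can be seen, so the count does not set the members apart from other probes. The median log2 ratio of the 15 was -0.05, beside -0.03 over all measured probes. The ratios ran from -2.27 to 0.68, with 7 above and 8 below 0, and 11 of the 15 lay within 0.5 of 0, where 89.3% of all measured probes lay. The 4 outside that range were all D cyclin probes, and 3 of them were the 3 members' probes printed once within the corner. Among all probes printed in the corner 5.34% were called higher and 2.17% lower, against 0.434% and 0.669% of probes with no spot there.

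**Figure D1:**
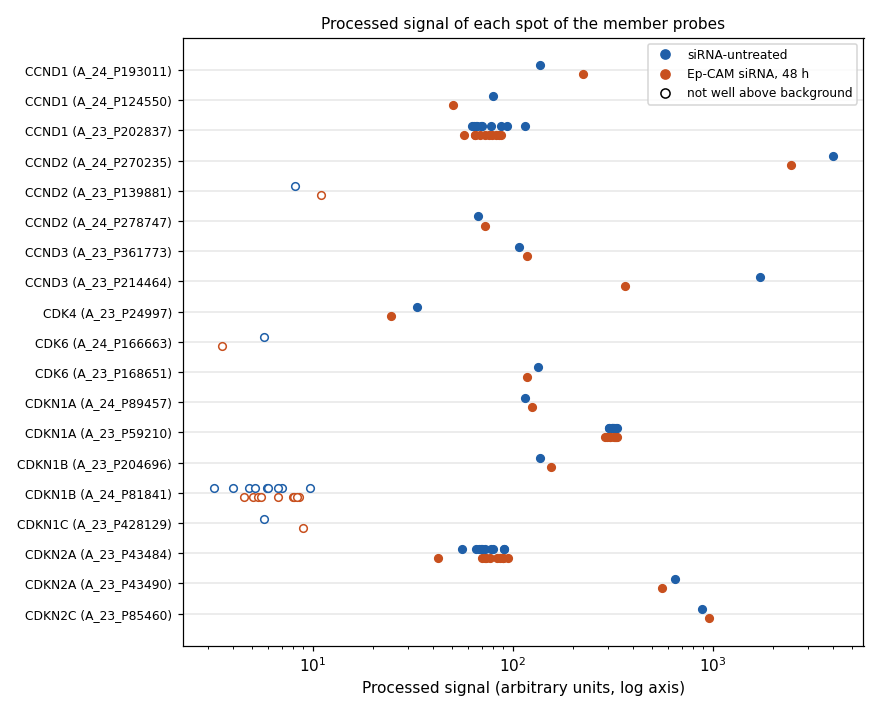
Processed signal of each member probe on the untreated and the siRNA-treated array, in arbitrary units on a log axis, with probes grouped by gene. Most pairs of points lie close together, the CCND3 probe at 1728 and 367 stands widest apart, and the 4 probes that were not well above background lie at the dim end.

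CCND3, the D cyclin with the widest use across tissues, was measured by a pair of probes that gave different results. The probe whose sequence is given above gave 1728 before and 367 after treatment, which is a log2 ratio of -2.27 (error 0.20). Only 0.0148% of the measured probes of the array had a lower ratio. The other CCND3 probe, at chr6:42011171-42011230 and 5036 bases away on the genome, had 108 and 118, a log2 ratio of 0.09 (error 0.21). The probes thus differed by 2.36 on the log2 scale, the widest disagreement within a member gene. On these arrays the decrease was thus seen at 1 spot, which lies in the corner. Leaving out the corner removes that spot, so the 0 member probes then called lower do not check the decrease. By the study's text, quantitative RT-PCR also gave lower CCND3 mRNA after siRNA than in untreated cells. The forward primer given there for CCND3 lies within the sequence of the probe with the low ratio.

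The CCND3 spot with the low ratio lies at row 491 in column 85, at the outer edge of the corner, where the columns end. On the untreated and treated arrays it held 63 and 61 pixels, whose brightness varied by 12.6% and 12.2%. It was marked neither as saturated nor as an outlier on either array. Its raw mean brightness was 1091 untreated and 401 treated over local backgrounds of 37.0 and 38.0. The direction of its ratio was opposite to that of the median of the spots around it. In the surrounding block of 15 by 15 positions, 67 measured spots had a median log2 ratio of 0.54, with 13 called higher and 1 lower. The 2 measured spots next to it had 0.04 and 0.30. Over the whole last column, the 281 measured spots, the CCND3 spot included, had a median of -0.17, with 5 called higher and 8 lower. Within the corner rows of that column the 81 measured spots, again with the CCND3 spot, had a median of -0.26, with 5 higher and 4 lower. Whether the position of the spot had a part in its ratio was not tested.

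Part of the size of the CCND3 ratio came with a step of the signal processing. The software divides each spot by a smooth trend fitted over the array, whose median was 1.01 for untreated and 1.00 for treated cells. At the CCND3 spot the trend was 0.591 on the untreated array, and only 0.327% of all transcript spots had a value as low there. On the siRNA-treated array it was 0.875. Before this division the background-subtracted signals were 1021 and 321, a log2 ratio of -1.70, so the step widened the ratio by 0.57 on the log2 scale and the probe was called lower with it and without it. For the other 14 measured member probes the step moved the log2 ratio by 0.15 or less. The next largest shift was that of a CCND1 probe near the first row, from -0.85 to -0.71.

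**Figure D2:**
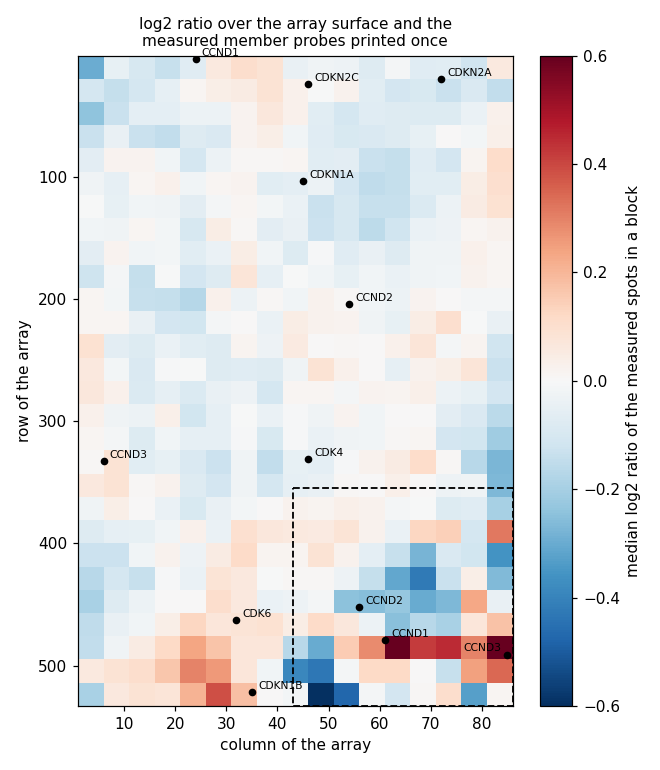
Map of the array surface, by row and column, coloured by the median log2 ratio of measured spots in blocks of positions. Only the spots of measured member probes printed once are marked. The corner with uneven ratios lies at high rows and high columns, and the CCND3 spot with the ratio of -2.27 lies at its outer edge in column 85, among spots with a median of 0.54.

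CCND1, the D cyclin most often amplified in human tumors, was measured by 3 probes that gave 3 different values. The probe printed 10 times, at chr11:69177414-69177473, had signals between 62.4 and 115 in untreated cells, with a median of 69.9. In siRNA-treated cells its spots lay between 57.2 and 87.5, with a median of 74.8. The 2 ranges overlapped, with 4 spots higher and 6 lower after treatment. Its mean log2 ratio was -0.08 (SD 0.22 over 10 spots), and the means were 77.2 ± 17.0 and 74.1 ± 10.1 (SD over spots). The 2 spots in the corner had a mean of -0.18 (SD 0.22) and the 8 outside it -0.06 (SD 0.23). With only 2 spots there, whether this probe depended on the corner was not tested. The probe at chr11:69176451-69176510, printed once outside the corner, had 80.0 and 50.2, a log2 ratio of -0.71 (error 0.26) where the spots around it had a median of -0.07. The coding probe shown above had 138 and 226, a log2 ratio of 0.68 (error 0.21), in the corner, where the spots around it had a median of 0.27. The single-spot CCND1 probes were thus 1.38 apart on the log2 scale with opposite signs, and the probe with 10 spots lay between them, close to 0.

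CCND2, a D cyclin found in neural progenitors, gave the brightest signal among the member probes. The coding probe above had 3981 untreated and 2478 treated, a log2 ratio of -0.72 (error 0.20) that did not reach the 2-fold threshold. It lies in the corner, where the spots around it had a median of -0.25. Bright probes in general were somewhat lower on the siRNA-treated array. Over the 1487 measured probes with a mean signal from 1000 to 5000 on both arrays, the median log2 ratio was -0.19 (SD 0.39), and over the 685 brighter ones it was -0.30. The part of brightness and of position in the CCND2 ratio was not tested. The CCND2 probe at chr12:4284301-4284360 had 67.4 and 72.6, a log2 ratio of 0.07 (error 0.23), and that at chr12:4279592-4279651 was not well above background (8.20 and 11.1). The decrease at the bright probe was therefore not seen at the other measured one, with a gap of 0.79 on the log2 scale between them.

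**Figure D3:**
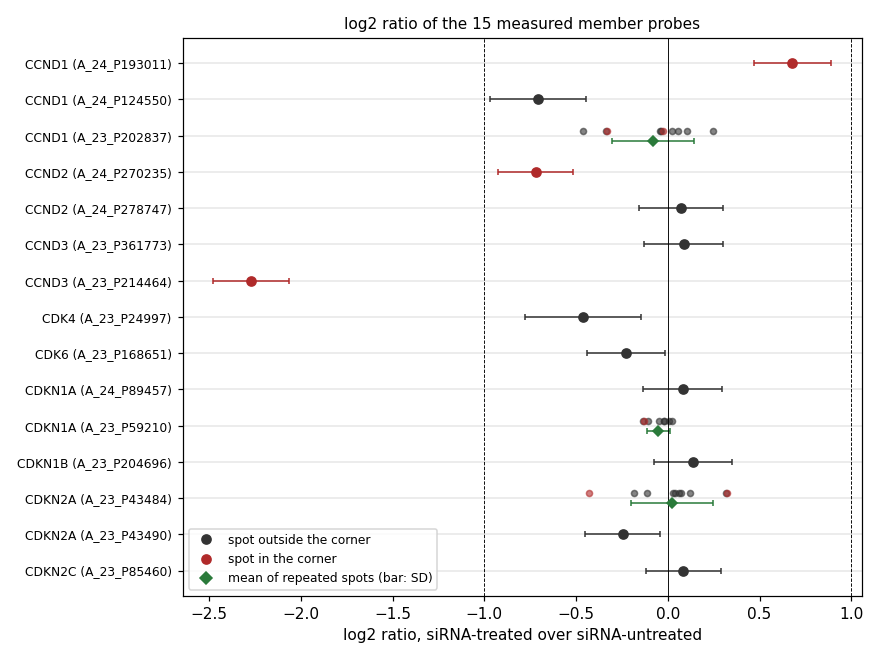
Log2 ratio of siRNA-treated over untreated cells for each of the 15 measured member probes, with error bars that give the SD over spots for probes printed 10 times and the error of the software's model for probes printed once, neither of which covers the spread between cultures. The CCND1, CCND2 and CCND3 probes spread from -2.27 to 0.68, while the kinase and inhibitor probes lie between -0.46 and 0.14.

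CDK4 and CDK6 are the kinases that D cyclins activate, and neither reached the threshold. CDK4, read by a single probe at chr12:56428530-56428589, had 33.2 untreated and 24.7 treated, a log2 ratio of -0.46 (error 0.32). These signals were close to the dimmest that counted as well above background (14.9 and 17.5 on the respective array), and CDK4 had the largest error of the measured members. CDK6, by the probe shown above, had 135 and 118, a log2 ratio of -0.23 (error 0.21). Its other probe, at chr7:91879094-91879153, was not well above background (5.71 and 3.51). The difference of CDK6 was about as large as its error.

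Among the CIP/KIP inhibitors, CDKN1A is the p53 target that encodes p21. It had the smallest SD over spots of the measured member probes printed 10 times. Its probe at chr6:36762684-36762743 was printed 10 times, and 2 spots in the corner marked as outliers on the untreated array were left out on both. The 8 other spots had a mean signal of 317 ± 10.0 untreated and 313 ± 15.8 treated (SD over spots). The mean log2 ratio was -0.05 (SD 0.06), with spots between -0.13 and 0.02. A second CDKN1A probe, at chr6:36760156-36760215, had 116 and 125, a log2 ratio of 0.08. The mean ratio of the first probe was smaller than the SD over its single spots, of which 6 were lower and 2 higher. The ratio of the second was smaller than the error of the software's model (0.21). Neither probe reached the threshold, and with 1 array for each condition a change this small could not be judged.

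CDKN1B, which encodes p27, a brake on cell cycle entry that is largely controlled by protein turnover, had 137 and 155 at chr12:12762386-12762445, a log2 ratio of 0.14. The spots around it had a median of 0.16, so it moved no more than its surroundings. The other CDKN1B probe, at chr12:12766207-12766266, was printed 10 times and had 0 spots well above background on either array, with a mean signal of 5.84 and 6.68 over 9 spots. CDKN1C, the imprinted gene of p57, was read by 1 probe, at chr11:2861479-2861538, which was not well above background (5.70 and 8.92). For it the arrays could not show a change.

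Of the INK4 inhibitors, CDKN2A was read by a pair of probes. The probe printed 10 times, at chr9:21957780-21957839, had a mean signal of 74.1 ± 11.0 untreated and 78.0 ± 14.9 treated (SD over spots) and a mean log2 ratio of 0.02 (SD 0.22), with 7 spots higher and 3 lower. Its most extreme spots, with 0.32 and -0.43, were the 2 in the corner. The other probe, at chr9:21958039-21958098, had 647 and 559, a log2 ratio of -0.25 (error 0.20). The locus also encodes p14ARF from shared exons, and the probes cannot be assigned to either product here. CDKN2C, which encodes p18, had 884 and 959 at chr1:51152214-51152273, a log2 ratio of 0.08. As reported here, before other processing was tried, no measured inhibitor probe differed by 0.5 or more on the log2 scale.

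**Figure D4:**
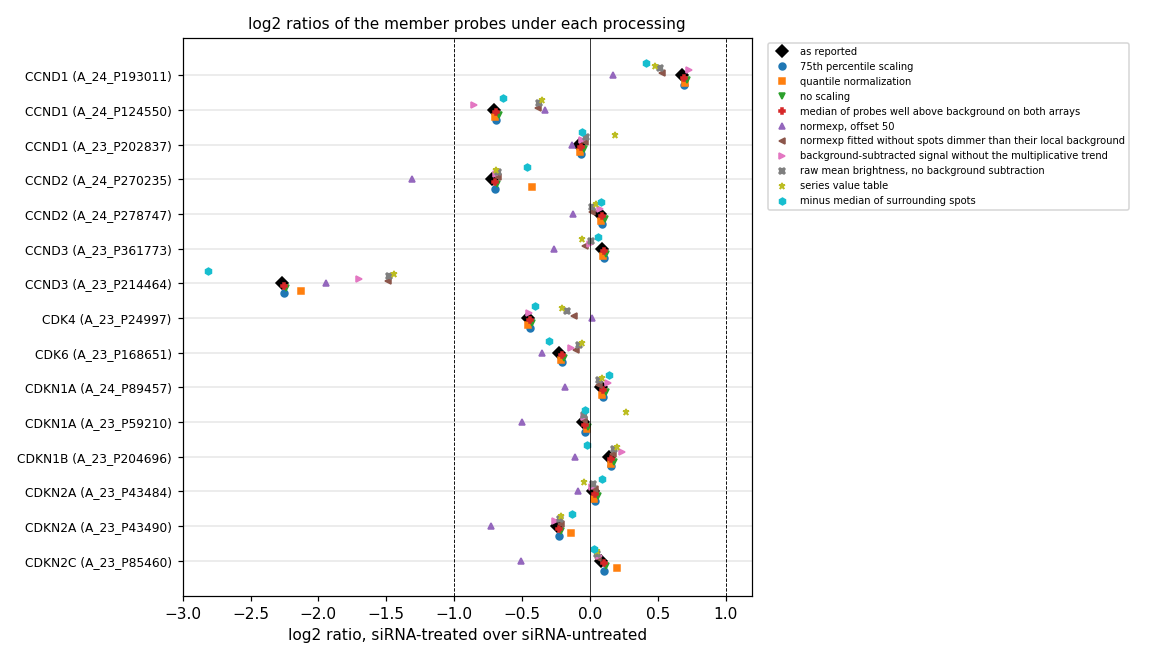
Log2 ratio of each measured member probe as reported and under the other scalings, background corrections and sources of values, with 1 symbol per setting. The CCND3 probe with the low ratio stays below -1 throughout, between -2.81 and -1.45, the bright CCND2 probe passes -1 under normexp background correction (-1.31), and 9 of the other 13 probes have values on both sides of 0.

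The surroundings of these genes in the pathway were read from lists of genes. Other cyclins and CDKs (18 genes, 17 of 22 probes measured) had 0 probes called and a median log2 ratio of 0.05. The brightest genes of that list were CDK8, a kinase of the Mediator complex, with 1366 and 989 (-0.50) in the corner, and CDK5. The latter, a kinase active in neurons, had 848 and 638 (-0.45). Other CDK inhibitors and related genes (6 genes, 4 of 7 probes measured) had 0 called and a median of 0.09. The brightest measured were CDK2AP2, with 756 and 844 (0.12), and CDK5R1, the activator of CDK5, with 158 and 168 (0.05). CDKN2B, the INK4 gene next to CDKN2A, had 31.7 untreated and 15.2 treated, dim on the second array, which gives a bound short of the threshold.

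Downstream of the D cyclin kinases, the pocket proteins, E2F and DP factors (13 genes, 15 of 22 probes measured) had 0 probes called and a median log2 ratio of -0.19. The brightest were E2F3, an activating E2F, with 2636 and 1809 (-0.58), and TFDP1, its dimerization partner, with 792 and 512 (-0.67). The other TFDP1 probe was not well above background. RB1 itself, chosen for mention after its values were seen, was not well above background at the probe printed 10 times and had 70.1 and 67.8 at another (-0.08). Genes of G1 and S phase known as E2F targets (19 genes, 17 of 26 probes measured) had 1 probe called higher and 1 lower, with a median of -0.10. The called probes were those of PCNA, the sliding clamp of DNA polymerase, with 1782 and 629 over 10 spots (-1.53, SD 0.08), and of RRM2, a subunit of ribonucleotide reductase, with 33.9 and 72.3 (1.06) at a single spot in the corner. MCM7 and MCM2, subunits of the replicative helicase, had -0.34 and 0.03.

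Genes for the turnover and folding of D cyclins, CDK4 and the inhibitors (15 genes, 20 of 28 probes measured) had 0 probes called and a median log2 ratio of -0.22. Its brightest genes were SKP1A, a core subunit of SCF ubiquitin ligases, with 10984 and 8137 (-0.47), and FBXW7, a substrate receptor of those ligases, with 3141 and 4010 (0.32). The other SKP1A probes had -0.27 and -0.80, and the other FBXW7 probe was not well above background. The p53 list, which holds upstream regulators and co-targets of CDKN1A (13 genes, 17 of 21 probes measured), had 0 called higher, 1 lower and a median of -0.01. The lower probe was that of GADD45A, a stress-response gene, with 3421 and 1679 (-1.06) in the corner. The brightest other genes were BBC3, an apoptosis gene with 8074 and 8957 (0.11) in the corner, and BAX, with 893 and 848 (-0.11). The other BAX probes had -0.24 over 10 spots and -0.80 at a single spot.

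Transcription factors and other regulators upstream of the members (19 genes, 34 of 39 probes measured) had 1 probe called higher, 2 lower and a median log2 ratio of -0.14. FOS, with 2372 and 454 (-2.42), and JUN, with 8048 and 2613 over 10 spots (-1.65), encode partners in the AP-1 factor, for which CCND1 is a known target. The higher call was that of a STAT3 probe that was not well above background untreated (3.85) and reached 32.0, at least 2.09-fold, while the 3 other STAT3 probes had log2 ratios of 0.09, 0.30 and -0.06. The brightest genes of the list were EZH2, a histone methyltransferase that represses CDKN2A in many cells, with 37424 and 27349 (-0.49), and CTNNB1, with 6168 and 5675 (-0.15). Another CTNNB1 probe, printed 10 times, had -0.51, and the other EZH2 probe had 0.01. Over the 7 lists, 2 of 128 tested probes were called higher (1.56%, beside 1.27% of all probes) and 4 lower (3.12%, beside 0.927%), and the medians lay between -0.22 and 0.09. Since the lists were drawn up with earlier results of these data known, these shares are a description only.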

How the data were processed

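Total RNA of Y79 cells was labeled with Cy3 and hybridized to one-color Agilent 4x44k arrays, 1 untreated and 1 harvested 48 h after Ep-CAM siRNA, on the same slide and with the same scan time. The deposited files hold spot intensity values that the authors extracted with Agilent Feature Extraction, version 9.5.3.1 in the file headers and 9.1 in the labels. The files also give, per the file headers, the multiplicative trend, a ratio by which the background-subtracted intensity was divided. The value table of the series was the raw median brightness of each spot (equal for 40736 of 40736 probes printed once, with array medians of 120 and 123).

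Control spots and spots marked as outliers on either array were left out (117 untreated and 131 treated were so marked). Arrays were scaled to their 50th percentile with a floor of 0.01, and spots of the same probe were averaged as log2 values. A probe was taken as well above background if 50% or more of its spots carried that mark, which 70.4% and 68.0% of all spots did. A probe above background on 1 array has a bound, with the lowest signal above background on the other array in its place. The scanner saturated on 73 and 53 spots. Coordinates come from the array design (hg17). All 19 member accessions matched the same symbol in RefSeq (GRCh38.p14), which gave no coordinates here. The members, lists and corner were chosen with earlier results of these data known. Every member probe is given, and from each list the genes with a called probe and the 2 brightest measured genes. RB1, other probes of named genes and further cell type markers were added after their values were seen. Alternatives were other scalings, background corrections, filters, thresholds and the series table. Chosen after seeing the data were normexp fitted without the 1 spot dimmer than its background and the signal before division by the trend. The scripts were tested on simulated data. Python 3.11.15 (numpy 2.4.6, pandas 2.3.3, matplotlib 3.10.9) and R 4.3.3 with limma 3.58.1 (normexp) were used.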

Additional observations from a re-analysis of the deposited data

How the results depend on the processing

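Across 15 settings, 0 member probes were called higher in 14 and 1 was called lower in 13. The setting limited to probes well above background on both arrays could not change these counts, since all 15 tested member probes met it. The scalings other than quantile normalization shift every ratio by the same amount. At the ratios named in the series text (1.5 or more and 0.55 or less) 1 was called higher, the CCND1 probe in the corner. With normexp (offset 50) 2 were called lower, CCND3 and the bright CCND2 probe (-1.31), and the median log2 ratio of the members was -0.27. Fitted without the 1 spot dimmer than its background, normexp moved 4 of the 15 probe ratios by more than the technical SD over spots (0.14), against 12 with that spot. Without the corner of the array 0 member probes were called lower, since that setting removes the only spot of the called CCND3 probe. With 1 probe per gene the median was -0.23 over 9 genes. The causes of the shifts with normexp and with 1 probe per gene were not tested. In the other settings the counts were 0 and 1. The low CCND3 ratio lay between -2.81 and -1.45, the bright CCND2 ratio between -1.31 and -0.43, and the ratio of the CCND1 probe in the corner between 0.17 and 0.73, over 10 settings. The low CCND3 ratio was the only one past the threshold as reported, and it kept its sign and its side of the threshold in all 10. The CDK4 ratio lay between -0.46 and 0.02. Some inhibitor ratios also moved. The CDKN1A probe printed 10 times lay between -0.50 and 0.26, and CDKN2C between -0.51 and 0.20. The 0.26 came with the series table, which holds 1 value for a probe and not the mean of its spots. In the other settings the highest value of that CDKN1A probe was -0.02. The brighter CDKN2A probe lay between -0.73 and -0.13. The lowest value of each of these inhibitor probes came with normexp (offset 50). Signal over background limits the results for 4 member probes, among them the one for CDKN1C, for which no change could be seen, and for CDK4. No paired analysis was possible because each condition has 1 array. Leaving out a replicate was not possible for the same reason.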
